A study of Mus musculus with 8 samples.

Results

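Proteasome genes were taken as every protein-coding gene whose mouse symbol begins with Psma, Psmb, Psmc, Psmd or Psme, and 45 of the 39179 genes listed in the count files met that rule. The RNA came from antigen-specific mouse CD4 T cells sorted as follicular helper (Tfh) cells, which help B cells in the follicle, or as non-Tfh cells, the other activated helper cells of the same response. All donor cells carried the Smarta transgenic T cell receptor and, per the labels, came from a cross to CreERT2 mice, whose Cre recombinase is switched on by tamoxifen. All were transduced with a retroviral vector and moved into C57BL/6 hosts, which still had their own lymphocytes. All hosts were immunized under the skin with nitrophenol and the receptor's peptide GP61-80, both on mouse serum albumin. Tamoxifen was injected on day 5, also in the hosts of control cells, and inguinal lymph nodes, pooled per the labels, were taken 18 hours later on day 6. The 4 groups of 2 libraries were Tfh cells with an empty vector, non-Tfh cells with an empty vector, Tfh cells with the inducible Bach2 vector and non-Tfh cells with that vector. Cells were sorted as Thy-1.1+ CD44hi, and as CXCR5+ PD-1+ (Tfh) or CXCR5- PD-1- (non-Tfh). The labels used here name no age or sex of the mice, and nothing in them says whether the replicates of a group were separate animals or cultures, so p-values measure the spread between these libraries, which may be technical.

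The 26S proteasome is the cell's main protease for proteins tagged with ubiquitin. Its barrel, the 20S core, is built from rings of alpha subunits (Psma genes), which gate the entrance, and beta subunits (Psmb genes), some of which cut peptide bonds. The 19S cap binds ubiquitin, removes it and threads the substrate in, using a ring of ATPases (Psmc genes) and a set of non-ATPase subunits (Psmd genes). In immune cells and under interferon gamma, Psmb8, Psmb9 and Psmb10 take the places of Psmb5, Psmb6 and Psmb7 in newly built cores, and Psme1 and Psme2 form the PA28 activator. This immunoproteasome is known for making peptides for MHC class I and is a large part of the proteasomes of lymphocytes. Bach2 is a transcription repressor of the CNC and Bach family, and the family members Nfe2l1 and Nfe2l2 are known activators of proteasome genes.

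Library totals ran from 7862879 to 9889859 counts. Bach2 itself checked the labels, at 11.2 to 28.9 CPM (counts scaled by library size) in the 4 empty vector libraries and 120.9 to 158 CPM in the 4 Bach2 libraries. Cxcr5, whose protein was used in the sort, was at 577 to 815 CPM in Tfh and 17.4 to 28.3 CPM in non-Tfh libraries. The 4 CD4 T cell markers summed to 6937 CPM or more in every library. Markers of other cells summed to at most 6.77 CPM (4 B cell genes), 20.7 CPM (6 macrophage and dendritic cell genes), 20.4 CPM (2 CD8 T cell genes, nearly all of it Cd8b1), 3.99 CPM (2 plasma cell genes) and 1.01 CPM (2 stromal genes, with Pdpn at 0 in all 8 libraries).

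Of the 45 genes, 8 encode 20S alpha subunits, 8 constitutive 20S beta subunits, 5 the immunoproteasome, 6 the 19S ATPases, 11 other 19S subunits, 3 chaperones of 19S assembly (Psmd5, Psmd9 and Psmd10) and 3 other activators or copies of activators (Psme3, Psme4 and Psme2b, an intronless copy of Psme2). The remaining gene, Psmc3ip, met the rule by its symbol only: it encodes a cofactor of meiotic recombination and is no proteasome subunit. The low-count filter of edgeR kept 43 of the 45. Psma8, the testis-specific alpha subunit, had 4 counts over all 8 libraries, and Psmb11, the catalytic subunit of the thymus epithelium, had 26. The 45 genes together took 0.795% to 0.954% of a library's counts.

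Levels between genes are compared here as CPM per kilobase of coding length, averaged over the 8 libraries. Psmb8, the immunoproteasome's chymotrypsin-like subunit, was the highest of all tested members at 851 CPM per coding kb. The constitutive subunit it replaces, Psmb5, was at 209.8 CPM per coding kb. Psmb9 was at 387 and its constitutive counterpart Psmb6 at 261 CPM per coding kb, while Psmb10 was at 231 and Psmb7 at 114 CPM per coding kb. On this scale, then, each inducible catalytic subunit had a higher level than its constitutive counterpart. Per kilobase of all annotated exons the order turned for 1 pair, with Psmb9 at 69.5 and Psmb6 at 99.7 CPM per exon kb. The 2 genes of PA28 were near each other, with Psme1 at 464 and Psme2 at 543 CPM per coding kb.

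Within the alpha ring the level ran from 154 (Psma5) to 438 (Psma2) CPM per coding kb, a range of 2.84-fold. Among constitutive beta genes it ran from 114 (Psmb7) to 463 (Psmb1), or 4.05-fold. The 19S ATPases spanned 2.32-fold, from Psmc6 at 79.7 to Psmc3 at 185 CPM per coding kb, and the other 19S subunits 3.10-fold, from Psmd1 at 75.3 to Psmd8 at 233 CPM per coding kb. The median of the class was 345 for alpha, 261 for constitutive beta, 146 for 19S ATPase and 147 CPM per coding kb for other 19S genes, so the medians of the cap classes lay below those of the core classes. The 19S assembly chaperones were lower, from 53.9 (Psmd9) to 85.1 (Psmd10) CPM per coding kb. Psme4, which encodes the nuclear activator PA200, was the lowest proteasome gene that was tested, at 13.7 CPM per coding kb, while Psme3, which encodes PA28gamma, was at 332. Psmc3ip was at 10.99. Dividing by the length of all annotated exons, which counts retained introns and long ends, gave other orders within classes: Psmb5 was then the highest constitutive beta gene (185 CPM per exon kb), Psma6 the highest alpha gene (222) and Psme2 the highest immunoproteasome gene (221), ahead of Psmb8 (208).

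**Figure D1:**
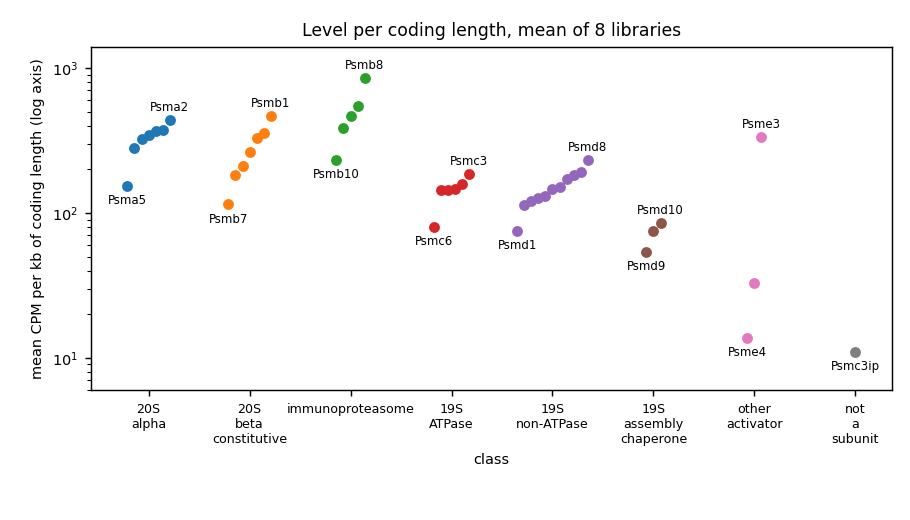
Each point is 1 tested gene, with the mean CPM per kilobase of coding length over 8 libraries on a log axis and the gene class on the other axis. The lowest and highest gene of each class are named. Psmb8 stands highest at 851 and Psme4 is the lowest proteasome gene at 13.7 CPM per coding kb.

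RefSeq promoter windows (GRCm38.p6, 250 bases before to 50 after the transcription start) were given for 38 of the 45 genes. They were searched on both strands for 5 short motifs, since the proteasome genes are known targets of CNC factors, and Bach2 binds related letters. The antioxidant response type motif TGACNNNGC was in 6 of 38 members (15.8%) against 14.0% of all 27025 genes with a window. The AP-1 type motif TGANTCA, which is part of the Maf recognition element, was in 2 of 38 (5.26%) against 8.97%. The interferon-stimulated response element type motif was in 4 of 38 (10.5%) against 3.99%, the gamma-activated sequence type motif TTCNNNGAA in 2 of 38 (5.26%) against 9.55%, and CCAAT in 15 of 38 (39.5%) against 41.1%. Members with the interferon-stimulated response element type motif were Psmb3, Psmd4, Psmd9 and Psme1. Of the immunoproteasome genes with a window, only Psme1 had it. The stretches show the motif in capitals, 5′ to 3′ on the strand of the gene. Matches of TGACNNNGC and TGANTCA did not overlap each other in any member. The stretches were chosen as examples: TGACNNNGC in the core subunits Psmb5 and Psmb6, in the ATPase Psmc6 (on the other strand) and in the chaperone Psmd9, the AP-1 type letters farther upstream in Psmd9, and the interferon response type letters (on the other strand) in the core subunit Psmb3.
Psmb5, chr14:54618009-54618068, minus strand: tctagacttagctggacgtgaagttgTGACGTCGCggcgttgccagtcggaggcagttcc
Psmb6, chr11:70525297-70525356, plus strand: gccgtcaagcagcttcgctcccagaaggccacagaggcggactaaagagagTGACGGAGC
Psmc6, chr14:45329574-45329633, plus strand: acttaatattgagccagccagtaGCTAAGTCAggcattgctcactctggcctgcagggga
Psmd9, chr5:123228130-123228189, plus strand: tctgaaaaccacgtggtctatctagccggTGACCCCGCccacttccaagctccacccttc
Psmd9, chr5:123228037-123228096, plus strand: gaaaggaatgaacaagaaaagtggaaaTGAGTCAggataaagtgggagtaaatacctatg
Psmb3, chr11:97703246-97703305, plus strand: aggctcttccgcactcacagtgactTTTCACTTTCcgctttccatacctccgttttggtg
A match describes letters and is not evidence of binding. The 38 genes had 41 windows, and a single window per gene was checked for its direction. For 34 of the 38 genes the first 30 transcribed bases were found in a GENCODE transcript of the same gene.

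With the Bach2 vector, the estimates of proteasome genes were mostly negative in both cell types, while no member passed the threshold within a cell type. In Tfh cells 41 of the 43 tested members had a negative log2 fold change, against 50.1% of all 11475 genes tested, and the median over members was -0.19 against 0.00 over all genes. Among the empty vector Tfh libraries, leaving out replicate 2 gave a median of -0.12 and leaving out replicate 1 gave -0.24. In non-Tfh cells 41 of 43 were negative (49.8% of all genes), with a median of -0.14. Psmc3ip, which is no proteasome subunit, is counted among the 43 and was negative in both cell types. The estimate was negative in both cell types for 39 members and positive in both for 0. These 2 comparisons share no library, but the labels do not say whether the Tfh and non-Tfh cells came from the same hosts. Members can also vary together within a library, so a count of members is not a count of separate observations. In Tfh cells the 45 genes summed to 8925 and 9495 CPM with empty vector and to 8488 and 7866 CPM with Bach2. In bulk RNA, fewer cells of a type and less RNA per cell cannot be told apart.

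In neither cell type alone did a member pass the threshold of an adjusted p below 0.05. The count was 0 of 43 in Tfh cells (1.71% of all genes passed, 0.549% higher and 1.16% lower) and 0 of 43 in non-Tfh cells (0.871% passed, 0.253% higher and 0.619% lower) by edgeR's quasi-likelihood test. At an unadjusted p below 0.05 the counts were 18 of 43 in Tfh cells (15.9% of all genes) and 12 of 43 in non-Tfh cells (10.4%). DESeq2 called 1 member in Tfh cells (Psma3) and 0 in non-Tfh cells. The libraries of the 2 groups did not overlap, with Bach2 below empty vector, for 32 members in Tfh cells (22.9% of all genes) and 31 in non-Tfh cells (21.3%). For 27 members this held in both cell types, against 9.46% of all genes. With Bach2 above empty vector, 0 members were without overlap in Tfh cells (21.7% of all genes) and 2 in non-Tfh cells (20.9%), Psmb9 and Psme2b. In simulated counts of this design, the test recovered 0 of 200 genes changed 1.25-fold and 132 of 200 changed 1.5-fold in Tfh cells. Among the proteasome subunits the largest difference in Tfh cells was that of Psma3, at 0.803 of the empty vector level.

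**Figure D2:**
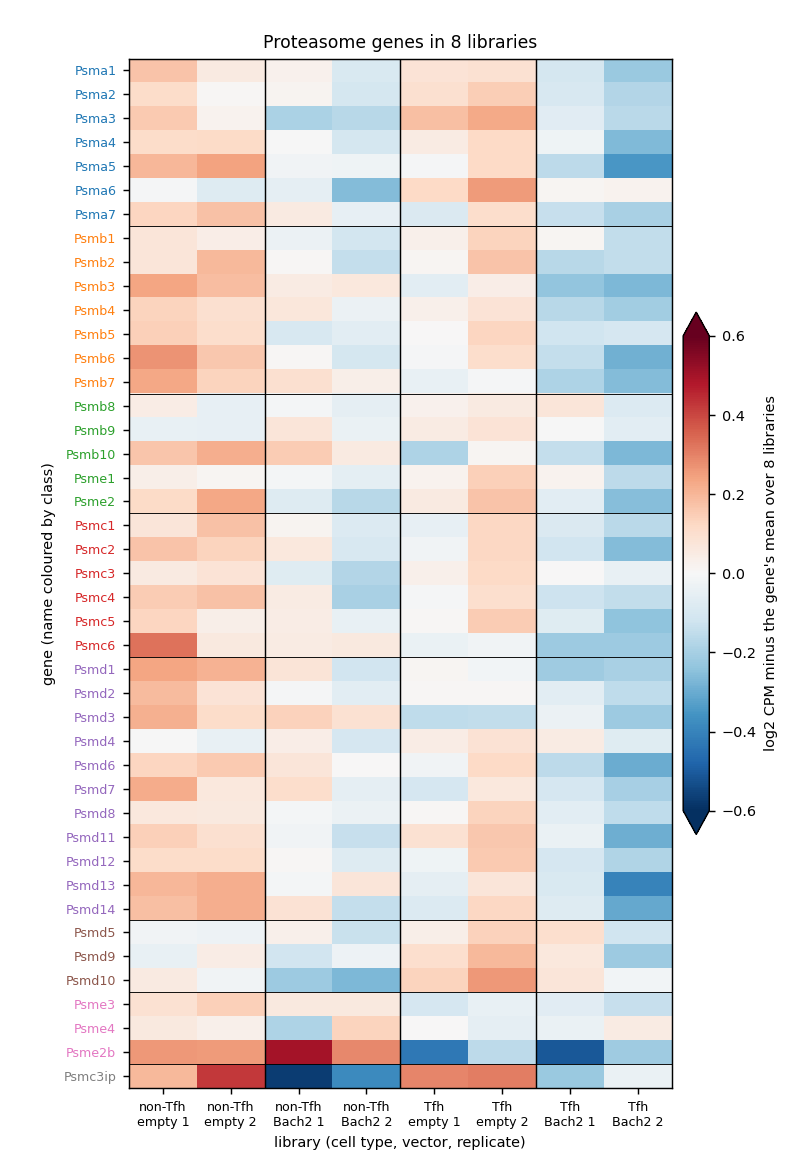
Rows are the 43 tested genes, with names coloured by class, and columns are the 8 libraries. Colour gives log2 CPM minus the mean of that gene over the 8 libraries. Most rows are lower in the Bach2 columns than in the empty vector columns of the same cell type, while Psmb8, Psmb9, Psmd4 and Psme4 show little of this pattern and Psme2b separates cell types.

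Averaged over both cell types, the vector effect passed the threshold for 5 of 43 members, all lower with Bach2 (5.27% of all genes were called, 2.37% higher and 2.9% lower). They were the alpha subunits Psma3 and Psma5, the beta subunit Psmb6, the PA28 gene Psme2 and the 19S subunit Psmd1. The estimate was negative for 42 of 43 members, with a median of -0.17, and 31 of 43 had an unadjusted p below 0.05 (20.2% of all genes). This average uses the same libraries as the comparisons within each cell type and is not separate evidence. DESeq2 called 7 members, these 5 with Psmb2 and Psmd11. The count fell to 1 when any of 5 libraries was left out: replicate 2 of Tfh cells with empty vector, replicate 1 or 2 of non-Tfh cells with empty vector, replicate 2 of Tfh cells with Bach2, or replicate 2 of non-Tfh cells with Bach2. The gene left was Psme2 without replicate 1 of non-Tfh cells with empty vector and Psma3 without any of the other 4.

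**Figure D3:**
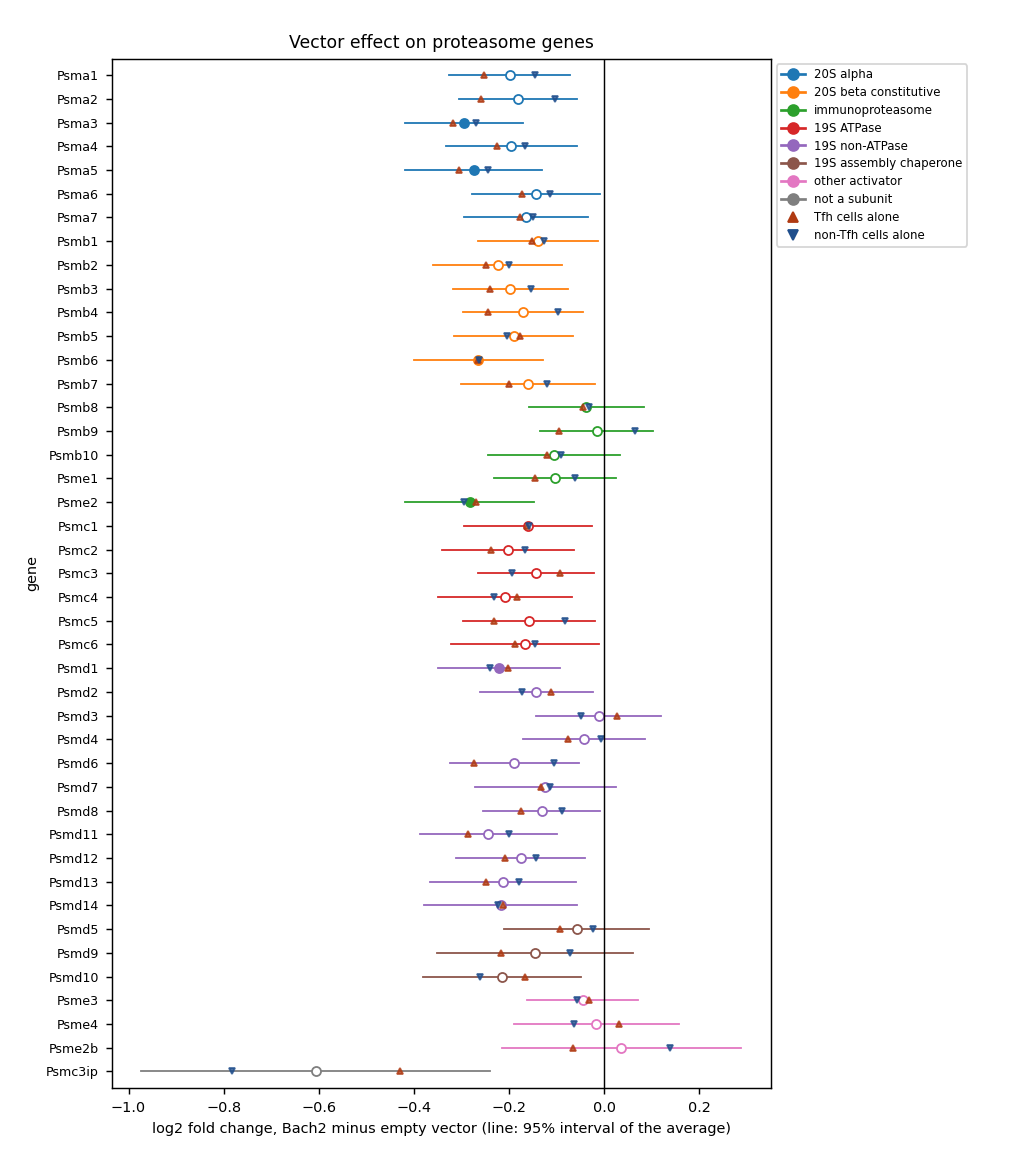
Circles give the log2 fold change of Bach2 against empty vector averaged over both cell types with its 95% interval, filled where the adjusted p was below 0.05. Triangles give the same within each cell type. The circles of 42 of 43 genes lie left of 0, with Psmb8, Psmb9, Psmd3, Psmd4, Psme3 and Psme4 nearest to it among the proteasome genes on that side.

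Psma3 (alpha7, ENSMUSG00000060073, chr12:70974621-70996347, GRCm38, plus strand) was at 279 and 288 CPM in Tfh cells with empty vector and at 234 and 220.1 CPM with Bach2. In non-Tfh cells it was at 275 and 249.8 CPM with empty vector and at 216 and 219 CPM with Bach2. All 4 Bach2 libraries lay below all 4 empty vector libraries. Averaged over cell types it fell by 0.29 ± 0.06 (SE) on the log2 scale, to 0.816 of the empty vector level (edgeR adjusted p = 0.0118).

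Psma5 (alpha5, ENSMUSG00000068749, chr3:108256926-108279974, plus strand) was at 109.9 and 120.2 CPM with empty vector and at 99.1 and 86.8 CPM with Bach2 in Tfh cells. In non-Tfh cells the values were 127 and 131 CPM against 109 and 109 CPM. The groups did not overlap within either cell type. Psma5 fell by 0.27 ± 0.07 (SE) on the log2 scale (edgeR adjusted p = 0.0328). The other 5 tested alpha genes had averaged log2 fold changes between -0.20 and -0.14, and all 7 had an unadjusted p below 0.05.

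Psmb6 (beta1, a catalytic subunit of the constitutive core, ENSMUSG00000018286, chr11:70525367-70527858, plus strand) was at 184 and 199.7 CPM in Tfh cells with empty vector and at 168 and 152 CPM with Bach2. In non-Tfh cells it was at 223 and 207 CPM against 186 and 173 CPM. The groups did not overlap within a cell type, and Psmb6 fell by 0.26 ± 0.06 (SE) on the log2 scale (edgeR adjusted p = 0.0288).

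The other catalytic genes of the constitutive core did not pass the threshold. Psmb5 (beta5, ENSMUSG00000022193, chr14:54614119-54618022, minus strand) was at 166 and 181 CPM against 152 and 155 CPM in Tfh cells, and at 183 and 178 CPM against 155 and 159 CPM in non-Tfh cells. Psmb7 (beta2, ENSMUSG00000026750, chr2:38588036-38644087, minus strand) was at 91.8 and 94.1 CPM against 83.0 and 78.9 CPM in Tfh cells, and at 111 and 104 CPM against 101 and 96.7 CPM in non-Tfh cells. Both were lower in every Bach2 library than in every empty vector library of the same cell type. Their averaged log2 fold changes were -0.19 ± 0.06 (edgeR adjusted p = 0.0763) and -0.16 ± 0.07 (SE, edgeR adjusted p = 0.182). All 7 tested constitutive beta genes had a negative estimate and an unadjusted p below 0.05, with a class median of -0.19 against 0.00 for all genes. The exons of Psmb7 share 405 bases with Nek6 on the opposite strand. Reads of genes that overlap in this way cannot be told apart, because the libraries carry no strand information.

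Of the 5 immunoproteasome genes, 1 passed the threshold for the averaged vector effect. Psme2 (PA28beta, ENSMUSG00000079197, chr14:55587441-55591113, minus strand) was at 402 and 436 CPM in Tfh cells with empty vector and at 370.3 and 324 CPM with Bach2, and at 419 and 454 CPM against 366 and 345 CPM in non-Tfh cells. Its Bach2 libraries were lower without overlap in both cell types, and it fell by 0.28 ± 0.06 (SE) on the log2 scale (edgeR adjusted p = 0.0200). Psme1 (PA28alpha, ENSMUSG00000022216, chr14:55578123-55581529, plus strand), which forms a ring with it, was at 351 and 382 CPM against 352 and 309.9 CPM in Tfh cells and at 355 and 348 CPM against 343 and 332 CPM in non-Tfh cells. Its groups overlapped in Tfh cells, and its averaged log2 fold change was -0.10 (95% interval -0.23 to 0.03, edgeR adjusted p = 0.366). The difference between these 2 genes was not tested.

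Psmb8 (beta5i, ENSMUSG00000024338, chr17:34197721-34201454, plus strand) was at 717 and 729.8 CPM in Tfh cells with empty vector and at 739 and 664 CPM with Bach2. In non-Tfh cells it was at 726 and 681 CPM against 699 and 678 CPM. The groups overlapped in both cell types. Its averaged log2 fold change was -0.04 with a 95% interval from -0.16 to 0.08 (edgeR adjusted p = 0.766), and the sign turned (0.0018) without replicate 2 of Tfh cells with Bach2.

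Psmb9 (beta1i, ENSMUSG00000096727, chr17:34181987-34187764, minus strand) was at 263 and 269 CPM against 254 and 243 CPM in Tfh cells, and at 246 and 245 CPM against 267 and 247 CPM in non-Tfh cells. It was thus lower with Bach2 in Tfh cells and higher in non-Tfh cells, without overlap in either, and the test of that difference gave -0.16 ± 0.11 (SE, edgeR adjusted p = 0.998). The averaged log2 fold change was -0.02 (95% interval -0.13 to 0.10, edgeR adjusted p = 0.915), and its sign turned without replicate 2 of Tfh cells with Bach2 (0.0015) or replicate 2 of non-Tfh cells with Bach2 (0.012). Exons of Psmb9 share 212 bases with Tap1, a highly expressed peptide transporter gene on the opposite strand with 35572 counts, so part of these counts cannot be told apart from those of Tap1. Psmb10 (beta2i, ENSMUSG00000031897, chr8:105935735-105938444, minus strand) was at 165 and 189 CPM against 169.8 and 155 CPM in Tfh cells and at 210.4 and 218 CPM against 208 and 195 CPM in non-Tfh cells. Its groups overlapped in Tfh cells, and its averaged log2 fold change was -0.11 (95% interval -0.24 to 0.03, edgeR adjusted p = 0.394). The median of the 5 immunoproteasome genes was -0.10.

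Among 19S genes, Psmd1 (Rpn2, a scaffold of the cap, ENSMUSG00000026229, chr1:86064387-86139151, plus strand) was at 216 and 212 CPM in Tfh cells with empty vector and at 185 and 187 CPM with Bach2. In non-Tfh cells it was at 252 and 248 CPM against 226 and 198 CPM. The groups did not overlap, and Psmd1 fell by 0.22 ± 0.06 (SE) on the log2 scale (edgeR adjusted p = 0.0479), a call lost in 8 of 13 alternatives. All 6 ATPase genes had a negative averaged estimate, between -0.21 and -0.14, and an unadjusted p below 0.05. Of the 11 other 19S genes, 11 were negative, 8 had an unadjusted p below 0.05, and the class median was -0.18. Psmd3 and Psmd4, which encode the subunits Rpn3 and the ubiquitin receptor Rpn10, lay nearest to 0, at -0.01 and -0.04. The other activators Psme3, Psme4 and Psme2b had averaged log2 fold changes of -0.04, -0.02 and 0.04, and 0 of the 3 had an unadjusted p below 0.05.

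**Figure D4:**
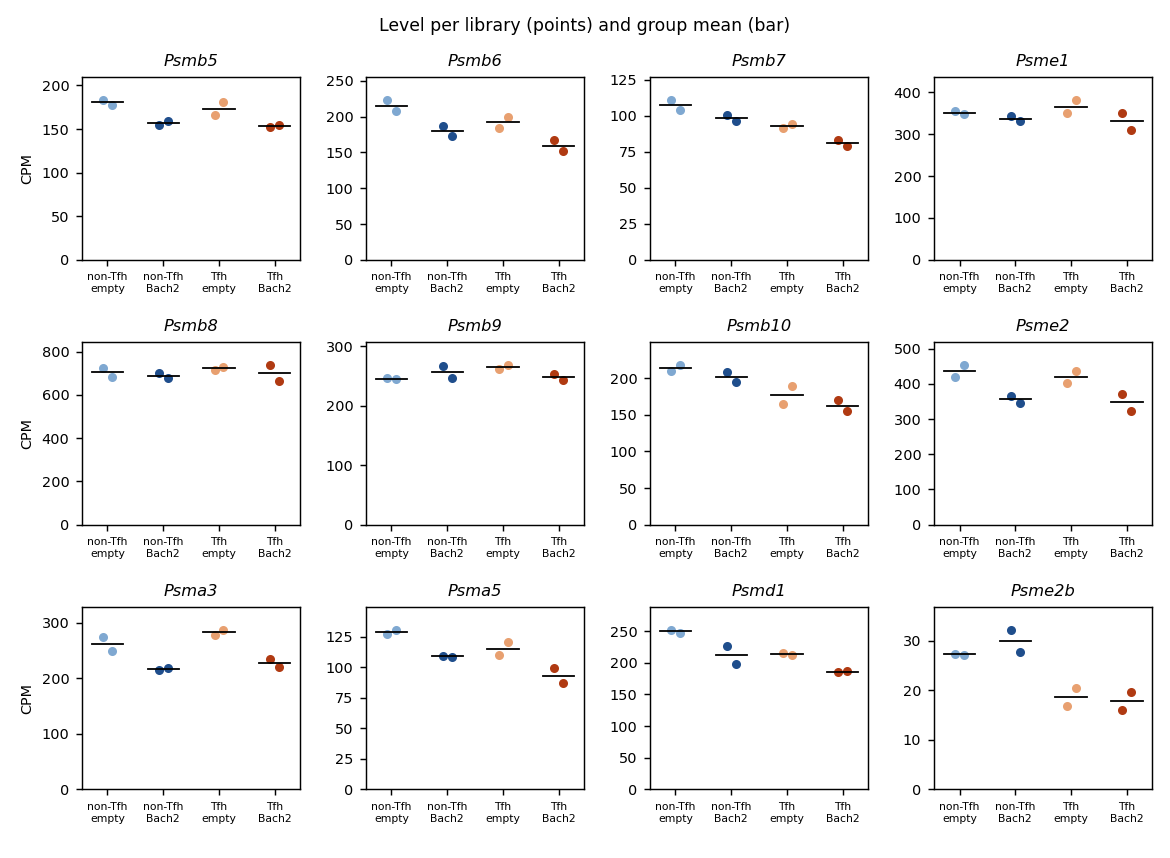
Each panel shows 1 gene, with CPM on the axis from 0, points for the 8 libraries and a bar at the mean of each group of 2. Psma3, Psma5, Psmb5, Psmb6, Psmb7, Psmd1 and Psme2 are lower in each Bach2 library than in the empty vector libraries of the same cell type, while Psmb8 overlaps and Psme2b differs by cell type.

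Summed over classes, the 16 constitutive 20S genes, with the 2 that failed the filter, were at 3227 ± 151 CPM in Tfh cells with empty vector and 2758 ± 113 CPM with Bach2 (SD, n = 2). In non-Tfh cells the sums were 3282 ± 69.5 and 2930 ± 122 CPM. The 17 genes of the 19S cap summed to 3464 ± 156 and 3088 ± 173 CPM in Tfh cells, and to 3712 ± 63.5 and 3347 ± 164 CPM in non-Tfh cells. The 5 immunoproteasome genes summed to 1951 ± 76.8 and 1791 ± 133 CPM in Tfh cells and to 1952 ± 5.86 and 1840 ± 61.9 CPM in non-Tfh cells. With 2 libraries a group, an exact test of such a sum cannot go below p = 0.333 (two-sided), and none was made. Values of other measures are given beside these sums. In Tfh cells the 5 Tfh markers summed to 2327 to 2612 CPM with empty vector and 1853 to 2156 CPM with Bach2. For non-Tfh cells the sums were 1175 to 1252 against 785 to 890 CPM, and none of the 5 markers was at 0. These marker sums were lower with Bach2 without overlap in both cell types. Single markers were less uniform: Pdcd1 and Icos overlapped between vectors in Tfh cells, and Cxcr5 did in non-Tfh cells. The rest were lower with Bach2 without overlap. Icos was higher in non-Tfh than in Tfh cells, at 938 and 915 against 585 and 747 CPM with empty vector. The other markers were higher in Tfh cells. The mitochondrial share of counts was 1.10% and 0.953% against 1.26% and 1.08% in Tfh cells, and 0.945% and 0.860% against 0.987% and 0.944% in non-Tfh cells, with overlap in both. Their part in the result was not tested.

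The RNA balance of inducible and constitutive catalytic subunits was described by ratios of counts per exon kb within a library. Such ratios do not depend on library scaling, and exchange of the proteins in the core was not measured. They use the same counts as the gene results above and are not separate evidence. The overlap of Psmb9 with Tap1 applies here too. The ratio of Psmb9 to Psmb6 was 0.728 and 0.689 in Tfh cells with empty vector and 0.775 and 0.821 with Bach2. In non-Tfh cells it was 0.564 and 0.606 with empty vector and 0.732 and 0.733 with Bach2. It was higher with Bach2 in both cell types, and higher in Tfh cells with either vector, without overlap. The difference was 0.25 on the log2 scale for the vector and 0.20 for the cell type. Both reached p = 0.0556 in an exact two-sided permutation test within the other factor, the smallest value that its 36 arrangements allow, so p below 0.05 could not be reached. Adjusted over the 6 tests of this kind, both were at 0.167.

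The ratio of Psmb8 to Psmb5 was 1.15 and 1.07 in Tfh cells with empty vector and 1.29 and 1.14 with Bach2, and 1.05 and 1.02 against 1.20 and 1.14 in non-Tfh cells. The difference was 0.15 on the log2 scale for the vector (exact permutation p = 0.111, adjusted 0.222) and 0.08 for the cell type (exact permutation p = 0.167, adjusted 0.25). The ratio of Psmb10 to Psmb7 was 3.60 and 4.03 in Tfh cells with empty vector and 4.10 and 3.95 with Bach2, and 3.80 and 4.22 against 4.14 and 4.04 in non-Tfh cells. It overlapped between groups, with differences of 0.05 for the vector and -0.05 for the cell type (exact permutation p = 0.444 for each, adjusted 0.444). As a share of the 6 catalytic subunits per exon kb, the 3 inducible ones made up 54.7 ± 0.489% in Tfh cells with empty vector, 57.0 ± 1.11% in Tfh cells with Bach2, 53.6 ± 0.451% in non-Tfh cells with empty vector and 56.7 ± 0.628% in non-Tfh cells with Bach2 (SD, n = 2). Per coding kb these shares were 71.4%, 73.4%, 69.3% and 72.1%. The level of the share depends on the length used, while on either the Bach2 groups were higher.

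**Figure D5:**
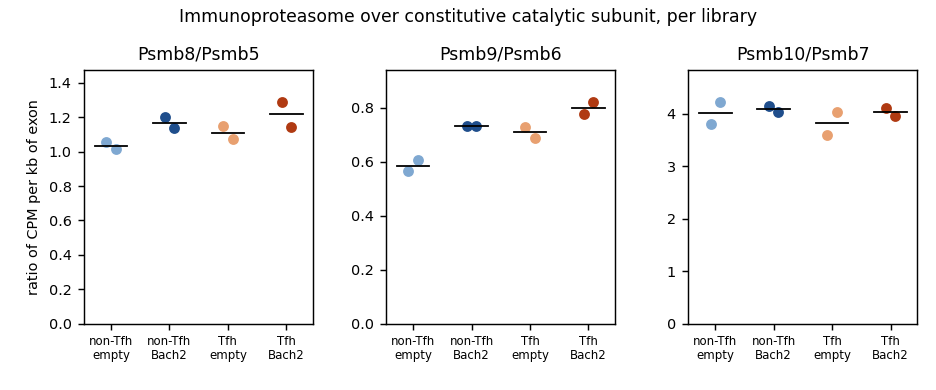
Each panel gives the ratio of an inducible to a constitutive catalytic subunit, as CPM per kilobase of exon, with a point for each of the 8 libraries and a bar at the mean of each group of 2. For Psmb9 over Psmb6 both Bach2 libraries of a cell type (0.732 to 0.821) lie above its empty vector libraries, while Psmb10 over Psmb7 overlaps.

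Between cell types the proteasome genes differed less uniformly. With empty vector, 3 of 43 members had a lower level in Tfh cells, and 0 a higher one, than in non-Tfh cells after Benjamini-Hochberg adjustment in edgeR's quasi-likelihood test (11.3% and 10.6% of all genes, and 21.9% in either direction). With the Bach2 vector, 5 of 43 were lower and 0 higher (12.7% and 11.6% of all genes, and 24.4% in either direction). The share of members called was thus below that of all genes in both. Estimates were negative for 29 and 32 of 43 members (49.3% and 49.9% of all genes), with medians of -0.06 and -0.09 against 0.01 and 0.00 over all genes. The median with empty vector was -0.01 without replicate 1 and -0.12 without replicate 2 of Tfh cells. That with Bach2 was -0.05 without replicate 2 of Tfh or replicate 1 of non-Tfh cells, -0.14 without replicate 1 of Tfh cells and -0.15 without replicate 2 of non-Tfh cells. Psmb10 and Psme2b were called in both. These comparisons use the same empty vector or Bach2 libraries as the vector effects above. The count with empty vector went to 0 without replicate 1 of Tfh cells or without replicate 1 or 2 of non-Tfh cells with empty vector. That with Bach2 went to 3 without replicate 1 or 2 of non-Tfh cells with empty vector, to 2 without replicate 1 or 2 of non-Tfh cells with Bach2, and to 1 (Psme2b) without replicate 2 of Tfh cells with Bach2.

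Psmb10 was lower in Tfh cells by a log2 difference of -0.28 ± 0.09 (SE) with empty vector (edgeR adjusted p = 0.0422) and -0.31 ± 0.09 with Bach2 (edgeR adjusted p = 0.0240), and its Tfh libraries lay below its non-Tfh libraries with either vector. Psmb8 and Psmb9, the other inducible catalytic genes, had log2 differences of 0.04 and 0.11 with empty vector and of 0.03 and -0.05 with Bach2, and neither passed the threshold. Psmb10 thus shared its direction with Psmb7, the subunit it replaces, which had -0.21 with empty vector (edgeR adjusted p = 0.128) and was lower by -0.29 ± 0.09 (SE) with Bach2 (edgeR adjusted p = 0.0368). The call of Psmb7 was lost in 9 of 14 alternatives, and that of Psmb10 in 6 of 14 with empty vector and 2 of 14 with Bach2.

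Psme2b (ENSMUSG00000078153, chr11:48945354-48946190, minus strand) was at 16.95 and 20.5 CPM in Tfh cells with empty vector and at 16.1 and 19.7 CPM with Bach2. In non-Tfh cells it was at 27.4 and 27.3 CPM and at 32.3 and 27.8 CPM. All 4 Tfh libraries lay below all 4 non-Tfh libraries, with log2 differences of -0.55 ± 0.17 (SE) with empty vector (edgeR adjusted p = 0.0283) and -0.75 ± 0.17 with Bach2 (edgeR adjusted p = 0.00403). Psme2b is a near copy of Psme2 and shares 41 exon bases with 9930111J21Rik1 on the same strand, so how its reads were divided is uncertain. Psme2 itself had log2 differences of -0.06 and -0.04.

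Of the other called genes, Psmd3 (Rpn3, ENSMUSG00000017221, chr11:98682554-98695979, plus strand) was at 181 and 181 CPM in Tfh and at 233 and 217 CPM in non-Tfh cells with empty vector, lower by -0.32 ± 0.09 (SE, edgeR adjusted p = 0.0181). With Bach2 it was at 196 and 173 against 222 and 214 CPM (edgeR adjusted p = 0.0599). Psmb3 (beta3, ENSMUSG00000069744, chr11:97703399-97713500, plus strand) was at 171 and 167 CPM in Tfh and at 208 and 211 CPM in non-Tfh cells with Bach2, lower by -0.31 ± 0.08 (SE, edgeR adjusted p = 0.0111). With empty vector it was at 193 and 207 against 237 and 229 CPM (edgeR adjusted p = 0.0608). Both genes were lower in Tfh cells without overlap under either vector.

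Psmd6 (Rpn7, ENSMUSG00000021737, chr14:14112174-14120984, minus strand) was at 126 and 114 CPM in Tfh and at 148 and 141 CPM in non-Tfh cells with Bach2, lower by -0.26 ± 0.09 (SE, edgeR adjusted p = 0.0458), a call lost without any 1 of the 8 libraries, in DESeq2 and with only the groups compared. With empty vector it was at 138 and 152 against 153 and 156 CPM (edgeR adjusted p = 0.509). The 3 assembly chaperones went the other way, with positive estimates under both vectors and class medians of 0.15 and 0.04, and 0 of 3 passed the threshold. The summed level of the 4 CD4 T cell markers was also higher in Tfh cells, at 9013 to 9455 CPM against 6937 to 7118 CPM with empty vector and 8985 to 10210 CPM against 7117 to 7293 CPM with Bach2. The macrophage and dendritic cell markers summed to 10.4 to 18.0 CPM in Tfh and 13.4 to 20.7 CPM in non-Tfh cells with empty vector. With Bach2 the sums were 11.8 to 13.3 CPM against 15.9 to 16.5 CPM. Csf1r and Itgax were at 0 in 1 Tfh library each. These sums hide opposite directions. Cd68 was higher in Tfh cells with either vector without overlap, while Xcr1 and Itgax were lower. With Bach2, Cd68 was at 5.43 and 4.23 CPM in Tfh and at 1.09 and 1.85 CPM in non-Tfh cells. Xcr1 was at 0.868 and 1.09 against 3.38 and 6.37 CPM. The rest of the list did not keep such a difference with both vectors. The part of the CD4 T cell, macrophage and dendritic cell markers in the proteasome differences was not tested.

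The vector effect was not shown to differ between Tfh and non-Tfh cells for any member. The interaction called 0 of 43 members and 0% of all genes by edgeR's quasi-likelihood test, 0 of 43 had an unadjusted p below 0.05 (4.7% of all genes), and DESeq2 also called 0 members. Its estimates had a median of -0.05, which ran from -0.10 to 0.03 when 1 library was left out, and 31 of 43 were negative (50.8% of all genes). That number was 17 without replicate 2 of Tfh cells with Bach2 and 20 without replicate 1 of non-Tfh cells with Bach2.

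Genes around the proteasome were read from 6 lists. Of all genes tested, 1.71% passed for the vector in Tfh cells and 0.871% in non-Tfh cells. At an unadjusted p below 0.05 these shares were 15.9% and 10.4%. Between cell types, 21.9% of all genes passed with empty vector and 24.4% with Bach2. Of the assembly chaperones of the core and the inhibitor Psmf1, 7 of 8 listed genes were tested. In this list 0 passed for the vector in either cell type (2 and 1 at an unadjusted p below 0.05, medians -0.21 in Tfh and 0.06 in non-Tfh cells). Psmg1, which pairs alpha subunits during assembly, was higher in Tfh cells with empty vector (log2 difference 0.47 ± 0.15 SE, edgeR adjusted p = 0.0347), a call lost in DESeq2 and without any 1 of the 4 empty vector libraries. With Bach2 it was not higher, at 39.4 and 31.4 CPM in Tfh and 44.0 and 35.4 CPM in non-Tfh cells. Its vector effect in Tfh cells was -0.57 ± 0.15 (SE, edgeR adjusted p = 0.0694). Of 7 further cap subunits and bound factors, Uchl5, a deubiquitinase on the cap, was lower in Tfh cells with either vector (-0.44 ± 0.12 and -0.54 ± 0.12 SE, edgeR adjusted p = 0.0182 and 0.00497), and 0 of 7 passed for the vector (2 in Tfh and 0 in non-Tfh cells at an unadjusted p below 0.05). Of 15 genes for ubiquitin, its activation and its shuttles, 0 passed for the vector in edgeR (1 and 2 unadjusted). With Bach2, Rps27a, which encodes ubiquitin fused to a ribosomal protein, was lower in Tfh cells (-0.33 ± 0.08 SE, edgeR adjusted p = 0.00966).

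Of 13 known regulators of proteasome transcription, 3 in Tfh and 2 in non-Tfh cells had an unadjusted p below 0.05 for the vector. Of all genes 15.9% and 10.4% did. Averaged over both cell types 7 of the 13 did, against 20.2% of all genes, and the list's median log2 fold change was 0.07. Mafg, a small Maf partner of CNC and Bach factors, was the only one of the 13 called for the vector. It was at 23.8 and 26.7 CPM in non-Tfh cells with empty vector and at 13.0 and 14.5 CPM with Bach2, and it fell by 0.88 ± 0.16 (SE) on the log2 scale (edgeR adjusted p = 0.0195), a call lost without any 1 of the 4 non-Tfh libraries. In Tfh cells it was at 48.5 and 46.3 CPM against 47.0 and 37.3 CPM. Averaged over cell types it fell by 0.52 ± 0.11 (SE, edgeR adjusted p = 0.0142). It was higher in Tfh than in non-Tfh cells by 0.91 ± 0.15 with empty vector (edgeR adjusted p = 0.000497) and 1.62 ± 0.16 (SE) with Bach2 (edgeR adjusted p = 5.13e-06). Nfe2l2, an activator of proteasome genes under oxidative stress, was at 87.3 and 102 CPM in Tfh and at 62.2 and 56.6 CPM in non-Tfh cells with empty vector, a log2 difference of 0.67 ± 0.11 (SE, edgeR adjusted p = 0.000451). Ngly1, whose enzyme activates Nfe2l1 protein, was higher in Tfh cells by 0.41 ± 0.08 and 0.35 ± 0.08 (SE, edgeR adjusted p = 0.00209 and 0.00579). Nfya, a subunit of the CCAAT-binding factor, was lower in Tfh cells with empty vector (-0.60 ± 0.20 SE, edgeR adjusted p = 0.0439). That call of Nfya was lost in 9 of 14 alternatives (adjusted p up to 0.160): with library totals, with no filter, with DESeq2, and without any 1 library other than those of Tfh cells with Bach2.

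Of 15 genes of MHC class I antigen processing, 0 passed for the vector within a cell type in edgeR. At an unadjusted p below 0.05 there were 3 in each, against 15.9% of all genes in Tfh and 10.4% in non-Tfh cells. Averaged over both, the chaperones of class I folding Calr and Canx fell by 0.22 ± 0.05 and 0.23 ± 0.05 (SE) on the log2 scale (edgeR adjusted p = 0.0322 and 0.0256). Of the 15, 0 were called higher, while 2.9% of all genes were called lower and 2.37% higher. In Tfh cells 4 of 15 were lower than in non-Tfh cells with either vector (11.3% and 12.7% of all genes). None was higher (10.6% and 11.6% of all genes). The 4 were Calr (-0.60 and -0.59), Canx (-0.38 and -0.33), Lap3, a trimming peptidase (-0.44 and -0.66), and Tapbp, which encodes tapasin (-0.33 and -0.26). The largest edgeR adjusted p of these 8 tests was 0.0294, that of Lap3 with empty vector. The averaged calls of Calr and Canx were lost in 6 and 5 of 13 alternatives, each of them a left-out library, and that of Lap3 with empty vector in 5 of 14. The list's medians were -0.21 and -0.18 between cell types, against 0.01 and 0.00 for all genes. For the vector the list's medians were near 0, at 0.018 in Tfh cells, -0.0045 in non-Tfh cells and 0.016 averaged over both.

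Of 8 genes that carry the interferon signal to the immunoproteasome, Jak1, a kinase of interferon receptors, rose with Bach2 in Tfh cells from 1461 and 1387 to 1734 and 1824 CPM (log2 fold change 0.32 ± 0.08 SE, edgeR adjusted p = 0.0479) and on average by 0.20 ± 0.05 (edgeR adjusted p = 0.0427). The call of Jak1 in Tfh cells was lost without any 1 of the 8 libraries and with only the groups compared, which is 9 of 14 alternatives (adjusted p up to 0.315). Its averaged call was lost in 6 of 13, each of them without 1 library other than replicate 1 of either Tfh group. Ifngr1, the ligand-binding chain of the interferon gamma receptor, was lower in Tfh cells by -1.71 ± 0.23 with empty vector and -1.36 ± 0.23 (SE) with Bach2 (edgeR adjusted p = 0.00241 and 0.00570). Jak2, a kinase of the same receptor, was higher by 0.78 ± 0.10 and 0.81 ± 0.10 (SE, edgeR adjusted p = 5.76e-05 and 3.82e-05).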

How the data were processed

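Counts were deposited by the authors as 1 whole number per Ensembl gene in each of 8 libraries. Per the submitters' processing notes, TopHat2, Bowtie2 and featureCounts were used on GRCm38/mm10. Not given in the sources used here are their order, versions, annotation and treatment of multi-mapping reads. Per the labels' protocols, RNA was amplified with Smart-Seq v4 and made into libraries with Nextera XT, which do not mark strand. Symbols, exons and positions came from GENCODE M21 (GRCm38), which matched 37693 of 39179 IDs. The other 1486 held 0.187% to 0.205% of a library's counts and stayed in the fit. The members and lists were chosen with earlier results of these data known.

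The counts were fitted in edgeR 4.0.16 (R 4.3.3): filterByExpr (minimum count 10, minimum total 15; 11475 genes kept), TMM factors (0.985 to 1.01), 1 coefficient per group over 8 libraries (4 residual degrees of freedom) and the robust quasi-likelihood test, with Benjamini-Hochberg adjustment over all 11475 genes and a threshold of 0.05. The biological coefficient of variation was 9.89%. No replicates were copies (chi-square between replicates, per degree of freedom: 5.83 to 9.09). The test was run on simulated counts first. Ratios were tested by an exact two-sided permutation test. Genes named were the immunoproteasome genes and their constitutive partners, every member past the threshold, members failing the filter, the extremes of each class per length, and up to 3 genes past the threshold per other list and comparison, by smallest adjusted p. Where 4 genes of a list passed, the last was named too, after its values were seen. Alternatives were DESeq2 1.42.0, other scalings, no filter, fewer groups, a replicate block and leaving out each library. All count errors exclude amplification, since reads carry no molecular identifiers. Some results of these lists are not reported here.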

Additional observations from a re-analysis of the deposited data

How the results depend on the processing

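Over 915 alternative values of 72 results, 753 were rated the same. For single genes this meant the same direction and side of the threshold, and for ratios the same direction only. Counts and shares were rated the same when near the main value. Some could not come out otherwise: coding length cannot change a difference of log2 ratios. Leaving out 1 of 2 libraries cannot move a share by more than its SD. Of the rest, 131 kept their direction but lost the threshold, 28 counts or shares moved, and 3 reversed. Those were averaged vector effects of genes that were not called: with 1 library left out, Psmb8 ran from -0.077 to 0.0018 and Psmb9 from -0.044 to 0.012 on the log2 scale. Of 50 single-gene results, 28 lost the threshold at least once. Members called for the vector in Tfh cells went from 0 to 1 with no filter, with DESeq2 and with the replicate block (Psma3 in each), and in non-Tfh cells from 0 to 1 (Psme2) with no filter. Averaged over cell types, 5 became 15 with no filter and 10 with the replicate block. Leaving out 1 library gave 1 to 7. The gene-level losses among those 5 that came from another setting than a left-out library were those of Psmd1 with library totals. Between cell types, DESeq2 gave 1 in place of 3 with empty vector (Psmd3) and 3 in place of 5 with Bach2 (Psmb3, Psmb10 and Psme2b). Fitting only the 2 groups compared also gave 3 of 5, and the replicate block gave 6, with Psmd3 added. Leaving out 1 library gave 0 to 3 with empty vector and 1 to 5 with Bach2. The count of negative estimates stayed at 39 to 41 (Tfh), 38 to 41 (non-Tfh) and 40 to 43 (average) of 43 when 1 library was left out, and ran from 23 to 34 (cell types with empty vector, 29 with all) and from 29 to 37 (with Bach2, 32 with all). It ran from 17 to 36 for the interaction (31 with all). Per coding kb, the inducible share was 71.4%, 73.4%, 69.3% and 72.1% in place of 54.7%, 57.0%, 53.6% and 56.7%. Where the cause is not set by the alternative's own construction, the cause was not tested.

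Same-numbered libraries of different groups had correlated deviations from their group means in some pairs only (Pearson r across 11475 genes from -0.0041 to 0.24 over 6 pairs of groups). The highest were those of Tfh with non-Tfh cells under the same vector, at 0.24 with Bach2 and 0.21 with empty vector. The other pairs ran from -0.0041 to 0.13. The labels give no shared origin, so the numbers were not taken as pairs. Whether same-numbered Tfh and non-Tfh libraries share an origin was not tested. With 2 libraries a group, power limits every count: in simulations of the averaged vector effect, 48 of 200 genes changed 1.25-fold and 194 of 200 changed 1.5-fold were recovered.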

Other observations

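Nfe2l1, which encodes the factor best known for raising proteasome genes when proteasome activity is low, was named here after its values were seen. It was at 80.2 and 68.7 CPM in Tfh cells with empty vector and at 93.6 and 99.0 CPM with Bach2, and at 92.9 and 77.9 against 80.1 and 98.6 CPM in non-Tfh cells. Its libraries were higher with Bach2 without overlap in Tfh cells and overlapped in non-Tfh cells. The averaged log2 fold change was 0.22 ± 0.09 (SE) and did not pass the threshold (edgeR adjusted p = 0.183). Its direction was opposite to that of 42 of the 43 tested members, with Psmc3ip among the 42.

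Psmc3ip, the meiotic recombination cofactor that the symbol rule brought in, was also named after its values were seen. It was at 8.53 and 8.60 CPM against 5.97 and 6.76 CPM in Tfh cells, and at 7.96 and 9.35 against 4.69 and 5.34 CPM in non-Tfh cells. The averaged log2 fold change was -0.61 ± 0.17 (SE, edgeR adjusted p = 0.0555), and its exons share 385 bases with Mlx on the opposite strand.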
